A study of Mus musculus with 8 samples.

Results

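Taok2 and Kctd13 are nearby genes inside the mouse chromosome 7 segment that matches human 16p11.2, and a 16p11.2+/- mouse carries each of them on 1 chromosome only. They are described here with their paralogues, Taok1 and Taok3 for Taok2, and Kctd10 and Tnfaip1 for Kctd13, and with 2 genes of the pathway that meets RhoA, Cul3 and Rhoa. The 8 genes were chosen by name, for their place in the segment or the pathway and with earlier results of these data known, from the 55032 genes of the deposited table. All 8 were found, and all 8 had enough counts to be among the 18294 genes tested. Only Taok2 and Kctd13 lie in the deleted segment.

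TAOK1, TAOK2 and TAOK3 are the TAO kinases, serine/threonine kinases that switch on MAP kinase kinases upstream of p38 and JNK and that also act on the Hippo kinases. In neurons TAOK2 is known for its part in axon and basal dendrite growth. KCTD13, KCTD10 and TNFAIP1 form a separate family of BTB proteins that bind the scaffold CUL3 and bring substrates to its ubiquitin ligase. RhoA, a small GTPase that acts through ROCK kinases and formins on actin and myosin, is the substrate for which the family is best known.

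Striatum was taken at P60 from female mice of the B6/C57 background, 4 WT and 4 16p11.2+/-, and the RNA of each mouse gave 1 library. Mice are named as in the labels, with WT for wild type and DF for 16p11.2+/-. The 16p11.2+/- line came from the Jackson Laboratory and carries a heterozygous germline deletion, so that every cell of the animal has it. The WT mice carried no engineered allele, and neither group had a treatment. The study used these libraries to ask which striatal genes change in the 16p11.2 deletion model.

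The libraries held 15125051 to 16523429 counts, and mice of the same group differed by more than counting noise (chi-square per degree of freedom 8.07 to 55.99). Medium spiny neuron markers, which define the striatum, were found in every mouse, at a mean log2 CPM of 8.07 to 8.82 in WT mice and of 6.27 to 8.75 in 16p11.2+/- mice. Their level was lowest in DF-1062 and DF-1037. Thalamus markers fell into 2 ranges, a lower one of 3.18 to 3.82 (WT-1015, WT-1041, WT-1061 and DF-1059) and a higher one of 5.54 to 6.49 (WT-1063, DF-1018, DF-1037 and DF-1062). Oligodendrocyte markers ranged from 8.09 to 8.48 in WT and from 7.49 to 8.09 in 16p11.2+/- mice, and choroid plexus markers were highest in WT-1063, at 7.50. No marker of these lists was at 0 in all mice. In RNA of a whole tissue, fewer cells of a type and less RNA per cell cannot be told apart.

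Taok2 was lower in the striatum of 16p11.2+/- mice, at 50.9% of the WT level. Taok2 (ENSMUSG00000059981, GRCm38 chr7:126865678-126884703, minus strand) measured 17.06, 18.18, 18.84 and 16.99 FPKM in WT-1015, WT-1041, WT-1061 and WT-1063. It measured 8.91, 8.99, 9.04 and 9.82 FPKM in DF-1018, DF-1037, DF-1059 and DF-1062. Every 16p11.2+/- mouse was below every WT mouse, and the group means were 17.8 ± 0.90 and 9.19 ± 0.42 FPKM (SD, n = 4 each). The log2 fold change was −0.97 ± 0.07 (SE), with an edgeR adjusted p of 0.000777. Its 95% interval ran from −1.12 to −0.83 and held −1, the value of a loss from 2 copies to 1. The difference of FPKM gave p = 0.0286 in a two-sided exact permutation test, which is the smallest p that 4 against 4 mice allow.

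Kctd13 was lower as well, at 47.1% of the WT level. Kctd13 (ENSMUSG00000030685, chr7:126928879-126945631, plus strand) measured 23.66, 25.43, 21.13 and 18.90 FPKM in the WT mice, in the same order as above. In the 16p11.2+/- mice it measured 9.841, 11.24, 9.422 and 12.19 FPKM. The groups did not overlap, with means of 22.3 ± 2.9 and 10.7 ± 1.3 FPKM (SD, n = 4 each), and the spread within a group was wider than for Taok2 (coefficient of variation 12.84% and 11.96%, against 5.08% and 4.62%). The log2 fold change was −1.09 ± 0.11 (SE), with a 95% interval from −1.34 to −0.83 and an edgeR adjusted p of 0.0100. The exact permutation test again gave p = 0.0286. Of the exon bases of Kctd13, 8.0% overlap Gm21984 on the same strand and 2.61% overlap Asphd1 on the other, and both of these genes lie in the segment and were also called lower.

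**Figure D1:**
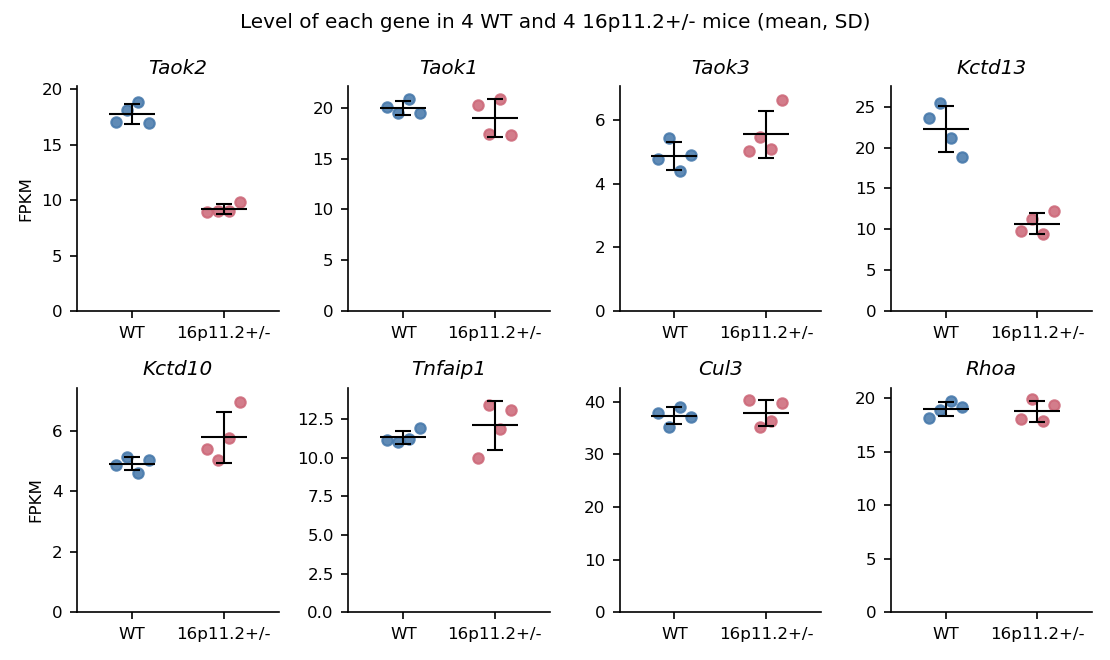
FPKM (y axis) of each of the 8 genes in WT (blue) and 16p11.2+/- (red) mice, 1 point per mouse, with the mean and SD of 4 mice as black bars. Only for Taok2 and Kctd13 do the points of the groups stay apart, near 17.8 against 9.19 and 22.3 against 10.7 FPKM.

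These 2 genes were the only members past an adjusted p of 0.05. Over all genes tested, 0.0929% were called lower and 0.0164% higher by edgeR. Those called lower were 17 genes, these 2 included, and all 17 lie in the deleted segment. Both members also accounted for the 2 of 8 members with an unadjusted p under 0.05, against 4.32% of all genes, and for the 2 of 8 whose log2 CPM was lower without overlap, against 1.71% of all genes. No member was higher without overlap, against 1.14% of all genes.

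The call of Taok2 held in 21 of the 23 alternative settings, and that of Kctd13 in 15. Kctd13 lost it, with the fold change at −1.02 to −1.10, when WT-1015 or WT-1061 or DF-1018 or DF-1059 was left out (edgeR adjusted p 0.0552 to 0.0665). With the thalamus marker level as a covariate the log2 fold change was −0.95 for Taok2 (edgeR adjusted p = 0.00414) and −1.03 for Kctd13 (adjusted p = 0.0709). With the oligodendrocyte marker level, which was below all WT mice in 3 of 4 16p11.2+/- mice, it was −0.96 for Taok2 (edgeR adjusted p = 0.0497) and −1.20 for Kctd13 (adjusted p = 0.194). In the mice with low thalamus markers, 3 WT and 1 16p11.2+/-, it was −1.01 for Taok2 and −1.33 for Kctd13. In those with high thalamus markers, 1 WT and 3 16p11.2+/-, it was −0.86 and −0.76. These ranges were set after seeing the data, and with 1 mouse on a side the values carry no test.

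Whether the 2 genes fell by different amounts was tested on their ratio within each mouse. The log2 ratio of Taok2 to Kctd13 FPKM was −0.32 ± 0.18 in WT and −0.21 ± 0.13 in 16p11.2+/- mice (SD, n = 4 each). The groups differed by 0.11 on the log2 scale, less than the SD of the WT mice, and the two-sided exact permutation test gave p = 0.314.

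Taok2 and Kctd13 lie 44175 bp apart, with 3 annotated genes between them. One of these, Tmem219, a membrane protein gene, was also called lower, and the others, Gm20650 and Gm23445, had too few counts. The allele of this line is named for its end genes Slx1b and Sept1, and the segment between them spans 543.7 kb (chr7:126689468-127233130) with 56 annotated genes, although the breakpoints were not measured here. The log2 fold change was below 0 for all 34 tested genes of the segment (median −0.96), and 17 were called lower, between −1.23 and −0.93. Taok2 stood 17th and Kctd13 10th from the most negative of the 34. Sept1, at the distal end, had few counts and a log2 fold change of −0.25 ± 0.31 (SE).

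**Figure D2:**
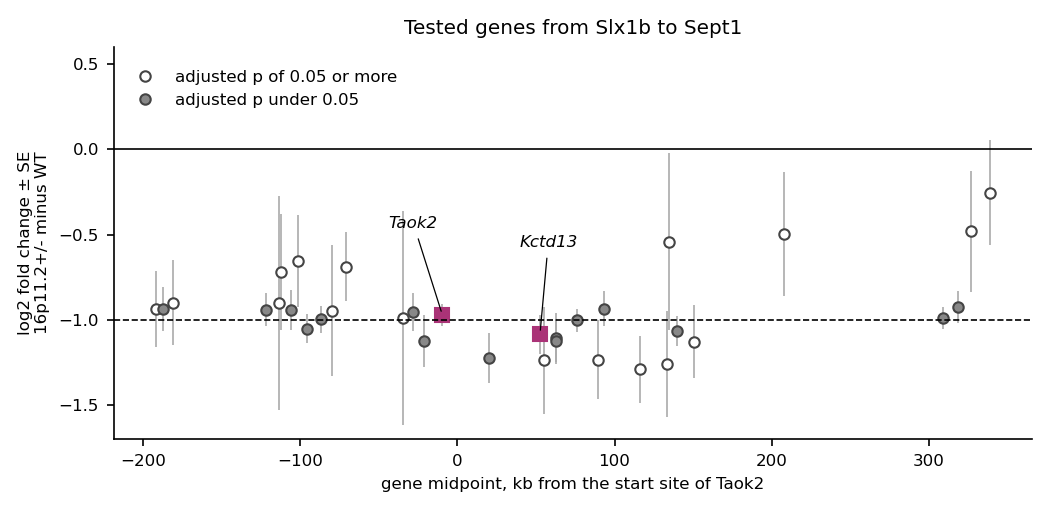
Log2 fold change with its SE (y axis, edgeR, 16p11.2+/- minus WT) of the 34 tested genes of the segment against the distance of the gene's midpoint from the start site of Taok2 in kb (x axis). Filled points passed an adjusted p of 0.05, squares are Taok2 and Kctd13, and the dashed line is −1; all 34 points lie below 0.

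The genes whose pattern over the 8 mice was nearest to that of Taok2 were segment genes. Likeness was the mean absolute difference in log2 CPM after each gene was centred on its WT mean. Cd2bp2 (0.0361), Sez6l2 (0.0546) and Ppp4c (0.0739) were nearest to Taok2, where the median over all tested genes was 0.563. For Kctd13 the nearest were Maz (0.101), Sez6l2 (0.109) and Aldoa (0.121), against a median of 0.642. Since genes were centred on the WT mean only, this measure includes the difference between groups. A gene without that difference was thereby far from Taok2 and Kctd13, and genes that fell by a like amount were bound to be near. The likeness thus describes mainly that difference, and says little about variation among mice.

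The paralogues can take over reads of a gene, or be mistaken for it, only where their sequences are alike. To show how far they are told apart, the 90-base coding stretch was taken in which each deleted gene most resembled the less similar of its 2 paralogues. In the lines that follow, each 5′ to 3′ on the coding strand and from GENCODE M21 transcripts, capitals mark the positions at which the 3 genes are not all the same. The TAO kinase stretch crosses a splice junction, in exons 7 and 8 of 16 in Taok2 (chr7:126878757-126878951), exons 6 and 7 of 19 in Taok1 (chr11:77571641-77573727) and exons 8 and 9 of 21 in Taok3 (chr5:117206729-117209611).
Taok2: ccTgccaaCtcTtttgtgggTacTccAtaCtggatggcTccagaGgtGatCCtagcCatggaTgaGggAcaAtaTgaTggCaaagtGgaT
Taok1: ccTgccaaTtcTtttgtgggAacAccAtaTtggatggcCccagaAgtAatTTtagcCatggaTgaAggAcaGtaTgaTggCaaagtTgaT
Taok3: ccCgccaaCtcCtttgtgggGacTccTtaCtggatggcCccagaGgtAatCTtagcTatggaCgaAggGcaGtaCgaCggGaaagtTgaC

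The Kctd13 stretch lies in a single coding exon, exon 5 of 6 in Kctd13 (chr7:126942253-126942342), exon 6 of 7 in Kctd10 (chr5:114367209-114367298) and exon 6 of 7 in Tnfaip1 (chr11:78527526-78527615).
Kctd13: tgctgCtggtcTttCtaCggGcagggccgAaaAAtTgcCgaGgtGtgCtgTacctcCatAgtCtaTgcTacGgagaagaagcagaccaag
Kctd10: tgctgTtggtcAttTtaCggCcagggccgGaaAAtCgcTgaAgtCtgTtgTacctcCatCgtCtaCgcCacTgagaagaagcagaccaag
Tnfaip1: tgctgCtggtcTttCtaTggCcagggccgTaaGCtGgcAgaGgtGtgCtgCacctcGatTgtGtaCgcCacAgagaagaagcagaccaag

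Even in these stretches 22 of 90 bases differed among the TAO kinases and 20 of 90 in the Kctd13 family. From Taok2, Taok1 differed at 12 and Taok3 at 17 of the bases, and from Kctd13, Kctd10 and Tnfaip1 differed at 14 each. Over the whole coding sequence the TAO kinases were 68.0% to 69.9% identical in pairs and the Kctd13 family 70.7% to 74.3%. No run of 50 bases of any member's transcripts was found in those of its paralogues among the 8.

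Taok1 (ENSMUSG00000017291, chr11:77529162-77607815, minus strand), the paralogue with the higher level, measured 20.1, 19.5, 20.9 and 19.5 FPKM in WT-1015, WT-1041, WT-1061 and WT-1063. Its values in DF-1018, DF-1037, DF-1059 and DF-1062 were 20.3, 17.5, 20.9 and 17.3 FPKM. The groups overlapped, with 2 of 4 16p11.2+/- mice below all WT mice and 1 above. The log2 fold change was −0.09 ± 0.10 (SE; edgeR adjusted p = 0.872), and its 95% interval, −0.32 to 0.13, left room for a level between 80.2% and 110% of WT.

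Taok3 (ENSMUSG00000061288, chr5:117120129-117275219, plus strand) was the lowest of the TAO kinases. It measured 4.78, 5.46, 4.39 and 4.92 FPKM in the WT mice and 5.03, 5.46, 5.10 and 6.63 FPKM in the 16p11.2+/- mice, in the same order. The groups overlapped, and DF-1062 was highest. The log2 fold change of 0.16 ± 0.09 (SE) did not pass the test (edgeR adjusted p = 0.859), with a 95% interval from −0.05 to 0.37.

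Added per mouse, the TAO kinases came to 42.7 ± 1.2 FPKM in WT and 33.8 ± 1.3 FPKM in 16p11.2+/- mice (SD, n = 4 each), which is 79.1% of WT. Taok2 made up 41.6% of the sum in WT and 27.3% in 16p11.2+/- mice. Taok1 and Taok3 together gave 24.9 ± 0.3 and 24.6 ± 1.4 FPKM, with the WT mice inside the range of the 16p11.2+/- mice. The sum without Taok2 thus differed between groups by less than the SD of the 16p11.2+/- mice.

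Kctd10 (ENSMUSG00000001098, chr5:114363567-114380508, minus strand) measured 4.88, 5.12, 4.61 and 5.04 FPKM in the WT mice and 5.39, 5.02, 5.76 and 6.95 FPKM in the 16p11.2+/- mice. In 3 of 4 16p11.2+/- mice it was above all WT mice, with DF-1062 again highest. Its log2 fold change was 0.21 ± 0.10 (SE), with a 95% interval from −0.01 to 0.43, and did not pass the test (edgeR adjusted p = 0.859; two-sided exact permutation test on FPKM, p = 0.0857). Of its exon bases 37.9% overlap Myo1h on the opposite strand, and reads of the 2 genes cannot be told apart without strand, a setting not given in the sources used here.

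DF-1062 had the lowest levels of medium spiny neuron and oligodendrocyte markers of the 8 mice (6.27 and 7.49 log2 CPM). With the oligodendrocyte marker level as a covariate the log2 fold change was −0.00057 for Kctd10 and −0.04 for Taok3. With the thalamus, cortical or choroid plexus marker level instead, it was 0.20, 0.18 and 0.20 for Kctd10. For Taok3 these covariates gave 0.13, 0.16 and 0.15. The part of tissue composition in the values of these 2 genes was not tested.

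Tnfaip1 (ENSMUSG00000017615, chr11:78522850-78536332, minus strand), the third of the family, is named for its induction by tumour necrosis factor. It measured 11.17, 11.00, 11.18 and 11.94 FPKM in the WT mice and 9.98, 13.4, 11.9 and 13.1 FPKM in the 16p11.2+/- mice. The groups overlapped, with 1 mouse below and 2 above all WT mice. On the log2 scale the fold change was 0.07 ± 0.09 (SE; edgeR adjusted p = 0.884), with a 95% interval from −0.13 to 0.28.

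The Kctd13 family summed to 38.5 ± 2.6 FPKM in WT and 28.6 ± 3.1 FPKM in 16p11.2+/- mice (SD, n = 4 each), or 74.1% of WT. Kctd13 was the larger part of the sum in WT mice, with 57.7%, and made up 37.4% in 16p11.2+/- mice. Kctd10 and Tnfaip1 together gave 16.2 ± 0.5 and 17.9 ± 2.0 FPKM, with the 16p11.2+/- mean at 110% of WT. Their ranges, 15.79 to 16.98 and 15.37 to 20.06 FPKM, overlapped. DF-1037, DF-1059 and DF-1062 (18.46, 17.61 and 20.06 FPKM) were above all WT mice, and DF-1018 was below them. The difference of this sum was not tested.

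**Figure D3:**
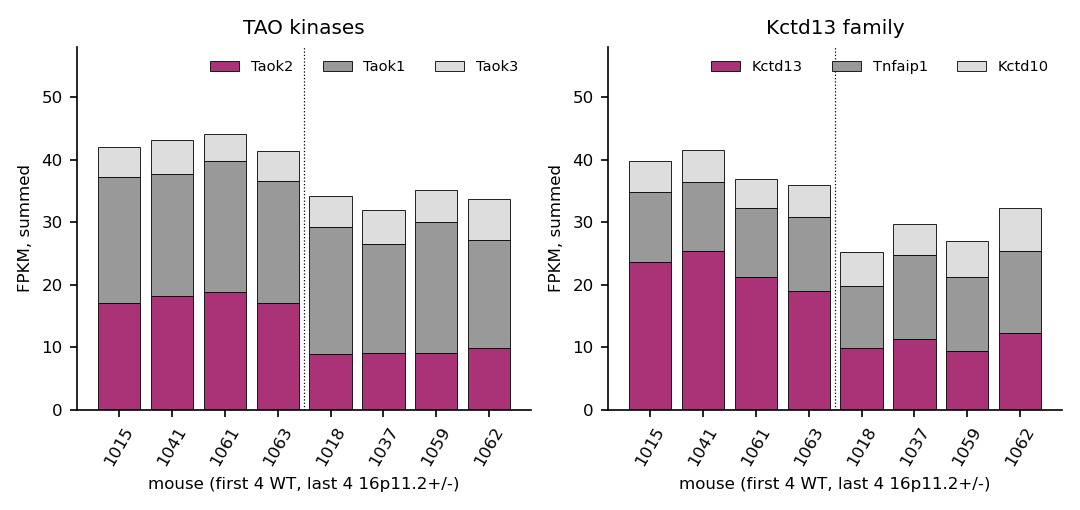
Summed FPKM (y axis) of the TAO kinases (left) and of Kctd13, Tnfaip1 and Kctd10 (right) in each mouse (x axis, 4 WT then 4 16p11.2+/-), stacked by gene. The lowest block, Taok2 or Kctd13, is smaller in every 16p11.2+/- mouse, and the sums fall from 42.7 to 33.8 and from 38.5 to 28.6 FPKM on average.

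Cul3 (ENSMUSG00000004364, chr1:80264923-80340480, minus strand), the ligase scaffold that the Kctd13 family binds, had the highest FPKM of the 8 genes. It measured 37.8, 35.2, 39.1 and 37.1 FPKM in the WT mice and 40.4, 35.3, 36.3 and 39.7 FPKM in the 16p11.2+/- mice. The groups overlapped, and the log2 fold change was 0.00059 ± 0.08 (SE; edgeR adjusted p = 0.999). The 95% interval covered levels from 88.4% to 113% of WT. Its sign turned in 8 of the 23 alternative settings.

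Rhoa (ENSMUSG00000007815, chr9:108306129-108337934, plus strand), the gene of the GTPase itself, measured 18.1, 18.9, 19.8 and 19.2 FPKM in the WT mice. Its values in the 16p11.2+/- mice were 18.1, 19.9, 17.9 and 19.4 FPKM. Again the groups overlapped, and the log2 fold change was −0.04 ± 0.07 (SE; edgeR adjusted p = 0.918), with a 95% interval of 87.9% to 108% of WT. Of the 50-base runs of its transcripts 7.42% also occur in another gene, among them Gm37401 on the opposite strand and the loci Gm12844 and Gm13578. The libraries measured mRNA, so the amount and activity of the RhoA protein were not measured.

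**Figure D4:**
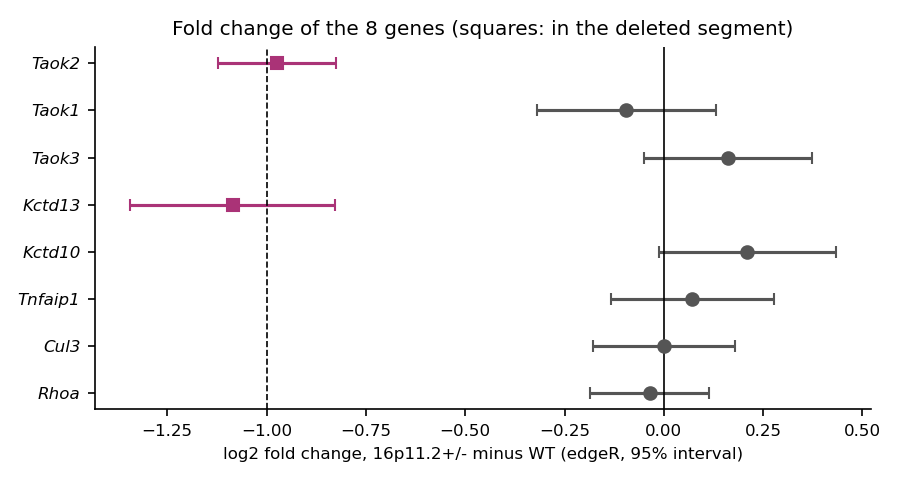
Log2 fold change of each gene (x axis, edgeR, 16p11.2+/- minus WT) with its 95% interval; squares are the genes in the deleted segment, the solid line is 0 and the dashed line −1. The intervals of Taok2 and Kctd13 hold −1 and exclude 0, and those of the other 6 genes hold 0 and exclude −1.

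FPKM is per length, here that of all annotated exons of a gene together. Transcripts in use can be shorter, which was not measured, so the order of genes is only that of these values. The same limit holds for the family sums and shares above. In WT mice Cul3 was highest, followed by Kctd13, Taok1, Rhoa and Taok2, whose ranges overlapped from each to the next. Tnfaip1 was below these, and Kctd10 and Taok3 were lowest and overlapped. In 16p11.2+/- mice Kctd13 and Taok2 stood below Taok1 and Rhoa, with Kctd13 in the range of Tnfaip1 and of Taok2. By mean FPKM over the 8 mice the members lay between the 56.6th (Taok3) and the 94.4th (Cul3) percentile of the tested genes. The counts behind these levels were lowest for Kctd10, with 298 to 464 per mouse, and highest for Taok1, with 3332 to 4252, while Kctd13 had 373 to 969 and Taok2 1265 to 2877.

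Of the 106 genes listed around the members, 105 were tested, and edgeR called 0 of them. The p38 gene Mapk13, with a mean of under 0.1 FPKM in each group, had too few counts. An unadjusted p under 0.05 was found for 7 genes, 3 lower and 4 higher, by edgeR, and for 7 also by DESeq2 and by limma-voom, and no tool called any of them. That number was 0 with the oligodendrocyte covariate, 5 with the cortical, 6 with the thalamus and 10 with the choroid plexus covariate, and 5 to 9 with each mouse left out. The share of 7 genes, 6.67%, compares with 4.32% of all genes tested. The log2 fold changes were negative for 56 genes and positive for 49, with a median of −0.02, against −0.0093 over all genes.

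Over all genes tested, 51.84% of the log2 fold changes were negative. Genes of a list were measured in the same mice and can vary together, so counts of signs carry no test. Among the 10 tested MAP kinase genes downstream of the TAO kinases, 8 values were positive, and the median was 0.15. Map2k3 (0.06 ± 0.21, SE) and Map2k6 (0.22 ± 0.19) encode the kinases that activate p38, and Mapk14 (−0.04 ± 0.08) encodes p38 alpha. The smallest p of the list belonged to Mapk9, a JNK gene, with a log2 fold change of 0.14 ± 0.08 (edgeR adjusted p = 0.859). Of the 9 Hippo kinases and cofactors, 8 had negative values, with a median of −0.12. Stk3, the kinase MST2, measured −0.14 ± 0.20, and Yap1, a transcriptional cofactor of the pathway, −0.36 ± 0.17 (edgeR adjusted p = 0.859). Sept7, a septin phosphorylated by TAOK2, was at −0.20 ± 0.11 on the log2 scale, and Nrp1, a semaphorin receptor that binds TAOK2, at −0.13 ± 0.28.

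The 8 genes of the Cul3 ligase core and of NEDD8 conjugation, which activates cullins, ranged from −0.09 to 0.19 in log2 fold change. Rbx1, the RING subunit, was at 0.08 ± 0.07 (SE), Nedd8 at 0.05 ± 0.13 and Cand1, a cullin exchange factor with the smallest p of the list, at 0.19 ± 0.10. Other substrate adaptors of Cul3 were spread about 0, with 7 negative and 9 positive of 16 values. Keap1, the adaptor for NRF2, measured 0.04 ± 0.07, Klhl20 measured 0.05 ± 0.07 and Klhl22, the smallest p of the list, 0.16 ± 0.09. Of the other 7 cullins, Cul1 was at 0.11 ± 0.07 and Cul7, with an unadjusted p of 0.0450, at 0.43 ± 0.19. Among 3 further partners of KCTD13, Adss, an enzyme of purine synthesis, was at −0.02 ± 0.07 and Pcna, the DNA clamp of replication, at −0.20 ± 0.09.

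Among the regulators of RhoA, the exchange factor Arhgef2 was at −0.26 ± 0.20 (SE) and Arhgef11, with the smallest p of its list, at 0.30 ± 0.10. The GTPase-activating protein gene Arhgap35, which encodes p190RhoGAP, measured 21.3 to 25.5 FPKM in WT and 24.4 to 33.5 FPKM in 16p11.2+/- mice. Its log2 fold change was 0.27 ± 0.10, with overlapping groups and an edgeR adjusted p of 0.859. The inhibitor Arhgdia, which holds RhoA in the cytosol, was at 0.03 ± 0.08.

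Of the 19 effectors and cofilin genes, 13 values were negative, against 51.84% of all genes, with a median of −0.12 and no test of the count. Rock1, the RhoA-dependent kinase with the smallest p of the list, measured 12.3 to 14.3 FPKM in WT and 10.9 to 11.5 FPKM in 16p11.2+/- mice. The log2 fold change was −0.25 ± 0.08 (SE; edgeR adjusted p = 0.859). These groups did not overlap, which held for 2 of the 105 tested pathway genes in the lower direction, close to the 1.71% of all genes. Rock2 was at −0.19 ± 0.15, Limk1, which phosphorylates cofilin, at 0.41 ± 0.20, and Cfl1, cofilin itself, at −0.03 ± 0.10. Ect2, an exchange factor (−0.78 ± 0.34), and Limk2, a cofilin kinase (0.25 ± 0.09), also had an unadjusted edgeR p under 0.05. Both were chosen after their values were seen. Ect2 had few counts, 15 to 40 per mouse against 1408 to 2370 for Limk2.

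**Figure D5:**
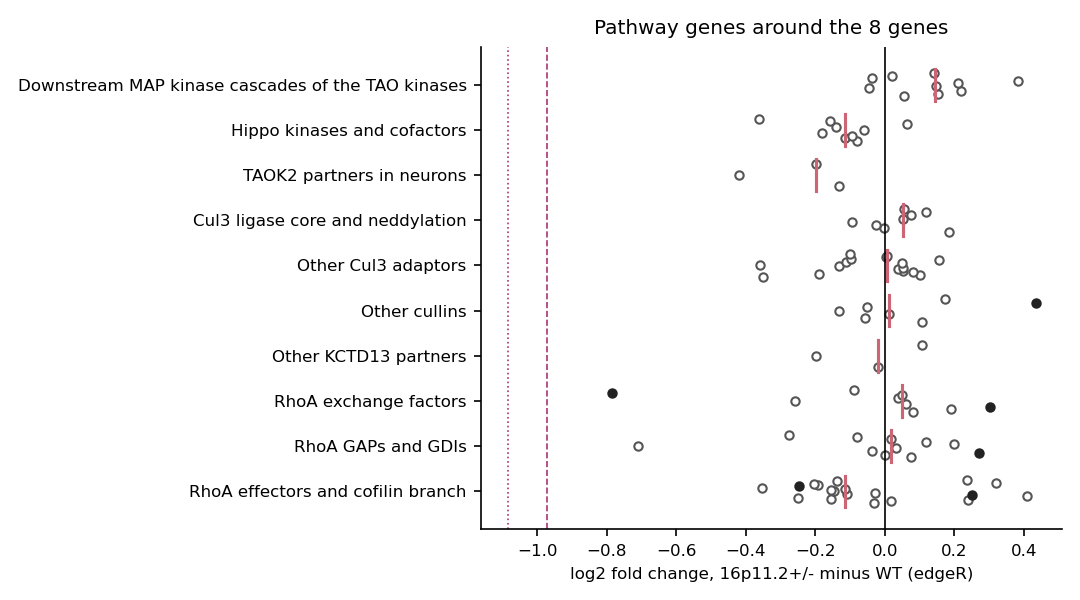
Log2 fold change (x axis, edgeR, 16p11.2+/- minus WT) of 95 of the 105 tested pathway genes, 1 point per gene, by list (y axis), with the median of each list as a red bar and filled points for an unadjusted p under 0.05. Dashed and dotted lines mark Taok2 at −0.97 and Kctd13 at −1.09, and every gene plotted lies to the right of both.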

How the data were processed

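The authors filtered reads for quality and adapters, mapped them with Hisat2 2.1.0 and deposited raw counts per gene from Htseq-count and FPKM for each of 8 mice; the labels' processing notes name Bowtie 0.12.2 and the builds mm8 and mm9 instead, and the annotation and strand setting are not given in the sources used here. Positions are those of GRCm38, looked up by gene ID and not read from the files. The gene length implied by the deposited FPKM equalled the exon length in GENCODE M21 (GRCm38) for all 8 genes, and for 95.64% of 15831 genes compared (tolerance 0.1%). For 27 genes whose symbols were stored as dates, symbols were looked up by gene ID. The authors' deposited comparison (fold changes and p-values) and their FPKM summary were not used.

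The test on counts was that of edgeR 4.0.16 under R 4.3.3 (TMM, filterByExpr with a minimum count of 10 and total of 15, quasi-likelihood test, Benjamini-Hochberg adjustment over 18294 genes, threshold 0.05). FPKM of a gene was compared by two-sided exact permutation over 70 assignments. The level of a marker list is its mean log2 CPM (prior count 2). Alternatives were DESeq2 1.42.0, limma 3.58.1 (voom, or log2 FPKM with a pseudocount of 1 or 0.1), other scaling, filters and marker covariates, and each mouse left out. Code was tested on simulated data. Sequences were compared with biopython 1.88.

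The 8 genes and all lists were chosen with earlier results of these data known. Named pathway genes are examples set with the lists and the smallest p of each list, and 1 list is counted in the totals but not reported by itself. The labels number the mice but give no batch, and p-values measure the spread between mice.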

Additional observations from a re-analysis of the deposited data

Results flagged for a closer look

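Among 34 groups of 4 mice examined, member and marker levels among them, 3 held a mouse far from the others. Chance gives about 1 in 20 for independent groups, but these groups share the same mice. Taok2 in DF-1062 measured 9.82 FPKM against 8.91 to 9.04 in the other 3, a gap of 0.859 of the group's range. That gap belongs to FPKM, which does not use the TMM factors (1.06 for DF-1062). On log2 CPM, which uses them, DF-1062 was at 6.44 against 6.40 to 6.42, so it did not stand as far apart. The thalamus marker level of WT-1063 was 6.49 against 3.18 to 3.32 log2 CPM in the other WT mice, a gap of 0.958. The astrocyte marker level of DF-1018 was 7.15 against 7.45 to 7.48 log2 CPM, a gap of 0.903.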

How the results depend on the processing

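Over 23 alternatives for each gene, the log2 fold change of Taok2 ranged from −1.01 to −0.86 and that of Kctd13 from −1.33 to −0.76, so both stayed negative, and the number of members called higher and of pathway genes called stayed at 0. The count of members called lower, 2, fell to 1 (Taok2) with thalamus or oligodendrocyte markers as a covariate and ranged from 1 to 2 with 1 mouse left out. Kctd13 lost its call with the thalamus covariate (−1.03, edgeR adjusted p = 0.0709) and with the oligodendrocyte covariate (−1.20, adjusted p = 0.194), where Taok2 kept it narrowly (−0.96, adjusted p = 0.0497). Its log2 fold change ranged from −1.16 to −1.02 with each mouse left out, and it was not called without WT-1015 or WT-1061 or DF-1018 or DF-1059, and the cause was not tested. Chosen after seeing the data, fits on the 4 mice with low thalamus markers (Taok2 −1.01, Kctd13 −1.33) and on the 4 with high markers (−0.86 and −0.76) called 0 members each, but with 1 mouse in a group, taken to vary like the other group, the missing calls say nothing about the members. None of the other 6 members was called under any alternative, but signs turned. Cul3 turned to −0.00087 with at least 10 counts in every mouse, −0.00033 with limma-voom, −0.028 with cortical markers as a covariate, −0.0617 in the low-thalamus mice and −0.00011 with choroid plexus markers as a covariate, also chosen after seeing the data, and ranged from −0.0401 to 0.0353 with each mouse left out. With oligodendrocyte markers as a covariate Taok1 turned to 0.050, Taok3 to −0.041, Kctd10 to −0.00057 and Rhoa to 0.029. Taok1 was 0.034 in the low-thalamus and Rhoa 0.0077 in the high-thalamus mice. The number of all genes called was 20, and it was 31 with DESeq2, 11 and 5 with thalamus and oligodendrocyte covariates, 3 and 0 in the low- and high-thalamus mice, 14 and 15 with cortical and choroid plexus covariates and 8 to 18 with each mouse left out.

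No paired analysis was run, because the labels number each mouse but give nothing that pairs a WT with a 16p11.2+/- mouse. With 4 mice a group, 95% intervals of the 6 members outside the segment reached from −0.32 to 0.43 on the log2 scale. None of these genes could be told from no change at this depth and number of mice. The intervals are not a limit of detection, and larger changes could also go uncalled. The segment gene Mvp, at −1.29 ± 0.20 (SE), was not called (edgeR adjusted p = 0.0986).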
